A study of Mus musculus with 6 samples.

Results

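The genes described here were the *Myc* family of transcription factors and the proteins that share the partner *Max* or its relative *Mlx*. The 10 members, *Myc*, *Mycn*, *Mycl*, *Max*, *Mxd1*, *Mxd3*, *Mxd4*, *Mxi1*, *Mnt* and *Mlx*, were taken by their symbols from the 55367 symbols listed in each library, and every one was present in all 6 libraries. RNA-seq was performed on DBA-positive cells from the kidneys of male mice at Day115 of the labels, with 2 libraries in each of 3 groups. DBA is a plant lectin that binds collecting duct epithelium. The WT group (genotype label WT, Pkd1+/+ in the methods) received saline, the ADPKD group (genotype label Pkd1-/-) received saline, and the ADPKD+MMPP group (genotype label Pkd1-/-) received MMPP, a manganese-chelated, PEG-coated melanin-like nanoparticle, by intravenous injection every 4 days from day 55. The ADPKD mice were *Pkd1* fl/fl;Cre/Esr1+ animals in which *Pkd1* was deleted by intraperitoneal tamoxifen at postnatal days 25 and 28, so both Pkd1-/- groups share this deletion and the tamoxifen. The promoter that drives the Cre, and whether WT mice carried it or received tamoxifen, are not given in the sources used here. ADPKD against WT may therefore also differ by Cre or tamoxifen. The labels do not say whether a library is 1 mouse, so p-values measure only the spread between these libraries, which may be technical. One line of the labels speaks of RNA of DBA-positive cells and another of RNA of whole kidney.

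*Myc*, *Mycn* and *Mycl* are basic helix-loop-helix leucine zipper proteins that bind DNA only as dimers with *Max*. Such dimers bind the E-box and raise the transcription of genes for ribosome production, nucleotide synthesis, glycolysis and cell growth, whereas *Max* dimers with *Mxd1*, *Mxd3*, *Mxd4*, *Mxi1* (also called Mxd2) or *Mnt* recruit Sin3 corepressors to the same sites. *Mlx* forms a parallel branch with MondoA (*Mlxip*) and ChREBP (*Mlxipl*), which respond to glucose, and it can also pair with *Mxd1*, *Mxd4* and *Mnt*. In mouse kidney, forced expression of *Myc* in tubules is known to give cysts, and *Myc* is among the genes known to be raised in cystic epithelium.

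The E-box CACGTG, the site that all of these dimers share, occurs in the promoters of some of the members themselves, and these sites are shown because the members' own promoters there carry the letters that the dimers bind. The windows searched run from 250 bases before to 50 bases after each start site in RefSeq (GRCm38.p6), and 9 members matched, with 11 windows. The motif, which reads the same on both strands, was found in 4 of the 11 windows, one each of *Mxd4*, *Mnt*, *Mlx* and *Max*, against 7.15% of the 32851 windows of all genes. The 30 bases around each site are printed 5′ to 3′ on the strand of the gene, with the E-box in capitals.
Mxd4, chr5:34187912-34187941, minus strand: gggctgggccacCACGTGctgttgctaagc
Mnt, chr11:74830789-74830818, plus strand: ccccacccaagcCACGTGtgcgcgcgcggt
Mlx, chr11:101087238-101087267, plus strand: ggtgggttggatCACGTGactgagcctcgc
Max, chr12:76962234-76962263, minus strand: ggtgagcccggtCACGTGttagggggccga
The first base of the E-box lies at -219 from the start site in *Mxd4*, -123 in *Mnt*, -40 in *Mlx* and -3 in *Max*. The *Max* E-box itself thus spans the start site. The cAMP response element TGACGTCA, the full site bound by CREB, was in 0 of the 11 windows and in 1.79% of all windows. A match describes these letters only, and the absence of one says nothing about CREB.

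The values are FPKM, fragments scaled to gene length and sequencing depth, so that levels can be compared between genes. Low values, once multiplied by exon length, were whole multiples of what 1 read is worth, which gave depths of 30.5 to 33.2 M reads in the WT and ADPKD libraries but 10.9 and 11.8 M reads in the ADPKD+MMPP libraries. Odd read numbers made up 35.4% to 37.3% of values of 1 to 20 reads in the WT and ADPKD libraries and only 7.68% and 8.12% in the ADPKD+MMPP libraries. This difference in how values were made belongs to 1 group only, so it and the treatment cannot be told apart. *Pkd1* had 17.7 and 17.2 FPKM in WT, 7.64 and 8.91 in ADPKD and 4.34 and 3.99 in ADPKD+MMPP. *Aqp2*, the water channel of principal cells, was abundant in every library, between 677 and 3555 FPKM. The 14 proximal tubule markers summed to 817 and 610 FPKM in WT, 2099 and 1493 in ADPKD and 24069 and 22908 in ADPKD+MMPP, and the 9 leukocyte markers to 229 and 177, 1037 and 658, and 1023 and 1043 in the same order. No marker of these lists was at 0 in all libraries, and the proximal tubule sum of the treated libraries stood far above that of the others in a preparation enriched for collecting duct. Most of that sum was *Kap* (12822 and 12116 FPKM) and *Gpx3* (8789 and 8321). Of the 14 markers, 10 were called higher and 1 (*Pdzk1*) lower after treatment, as given below. The leukocyte sum also hides opposite changes. *Lyz2* rose from 188 and 224 FPKM in ADPKD to 568 and 565, and *Csf1r* fell from 17.0 and 25.6 to 0.381 and 0.190. In all, 2 leukocyte markers were called higher and 4 lower. In such bulk samples, fewer cells of a type and less RNA per cell cannot be told apart.

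In WT cells, *Myc* was the member with the highest level, at 32.9 ± 4.13 FPKM (SD, n = 2), followed by *Mxd4* at 28.6 ± 1.38, *Max* at 19.4 ± 0.250 and *Mnt* at 15.97 ± 0.0316. *Mxd1*, *Mlx* and *Mycn* came next at 8.55 ± 0.829, 7.95 ± 0.921 and 7.68 ± 1.41 FPKM, and their libraries overlapped, so their order is not resolved. *Mxi1* stood at 4.34 ± 0.174 FPKM, and *Mycl* and *Mxd3* lay under 1 FPKM in WT with overlapping libraries. In ADPKD cells *Myc* stood further ahead, at 83.5 ± 11.3 FPKM, while *Max* and *Mnt* came next with overlapping libraries, and *Mxd4*, *Mxd1* and *Mxi1* followed, each overlapping the next. In ADPKD+MMPP cells *Mnt*, at 30.8 ± 0.381 FPKM, and *Mxd4*, at 28.5 ± 0.410, led the order, and *Myc* ranked seventh of the 10 at 1.11 ± 0.337.

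**Figure D1:**
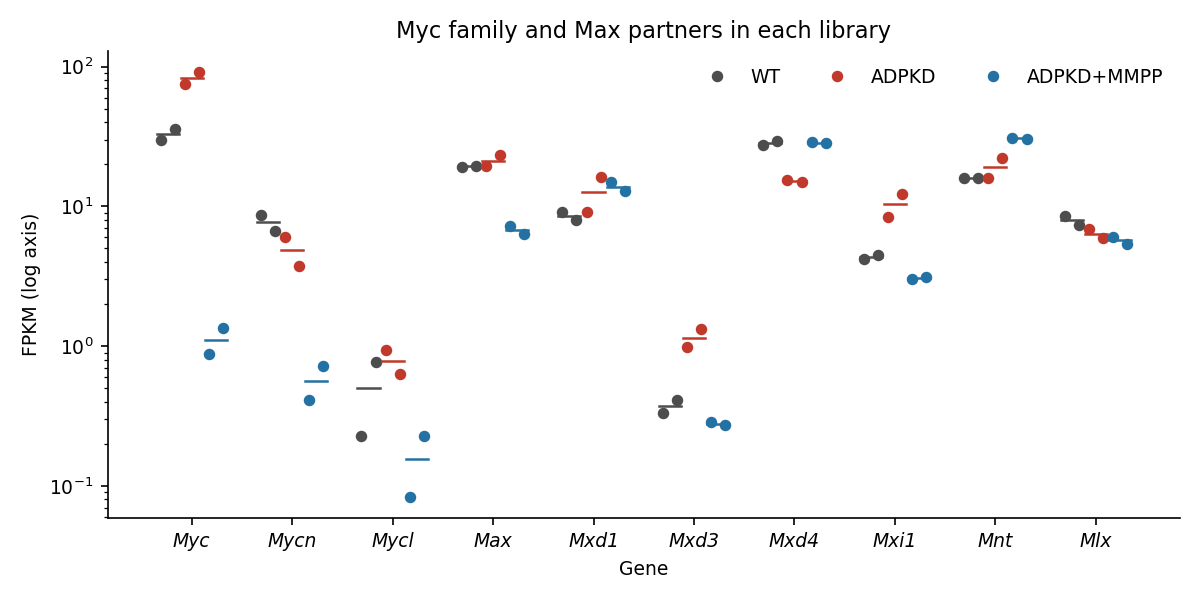
FPKM of the 10 members (log axis) in the 2 libraries of each group, with 1 point per library and a line at the group mean. The *Myc* points of ADPKD lie above those of WT and those of ADPKD+MMPP far below both, while *Mxd4* falls in ADPKD and stands at the WT level in ADPKD+MMPP.

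The first comparison, ADPKD against WT, asks how loss of *Pkd1* with cyst growth changes the network. *Myc* and *Mxi1* rose and *Mxd4* fell in ADPKD cells, while *Max*, the partner of all 3, was not called. The test was limma on log2(FPKM + 1) over 14862 genes that reached an FPKM of 1 in 2 or more libraries. A call needed a 1.5-fold change and an unadjusted p under 0.05. The Benjamini-Hochberg adjusted p over all tested genes is given for most called members and for some list genes. Counts in the lists rest on the unadjusted p unless stated. At an adjusted p under 0.05 with the same fold, 12% of all tested genes were higher and 10.6% lower in ADPKD against WT. *Mycl* and *Mxd3* did not pass the filter, so 8 of the 10 members were tested. Of these, 2 were higher and 1 was lower, against 14.2% and 12.5% of all tested genes called higher and lower. Every fold change below is on the log2(FPKM + 1) scale, which understates the change of a gene with low FPKM.

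*Myc* (chr15:61985391-61990374 in GENCODE vM21, plus strand), the main driver of growth in the family, had 29.9 and 35.8 FPKM in WT and 75.5 and 91.5 FPKM in ADPKD. Both ADPKD libraries lay above both WT libraries by more than the spread within either group. The log2 fold change was 1.32 ± 0.17 (SE, limma adjusted p = 0.00578), and it stayed between 1.18 and 1.46 when any 1 library was left out. *Mycn*, which in kidney acts mainly in nephron progenitors, went the other way in level, with 8.68 and 6.69 FPKM in WT and 6.001 and 3.75 FPKM in ADPKD. The groups do not overlap, but the log2 fold change of -0.58 ± 0.24 was not called (limma adjusted p = 0.127). It depended on 1 library, being -0.86 and called without ADPKD replicate 1 and -0.30 without ADPKD replicate 2, and it was also called after scaling the libraries to a common FPKM sum (-0.66). *Mycl* had 0.227 and 0.776 FPKM in WT and 0.936 and 0.633 FPKM in ADPKD, and these overlap.

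*Max* (chr12:76937269-76962201, minus strand), the obligate partner, had 19.2 and 19.6 FPKM in WT and 19.4 and 23.1 FPKM in ADPKD. The libraries overlap, and the log2 fold change of 0.12 had a 95% interval from -0.20 to 0.44. *Mxd4* (chr5:34173883-34187720, minus strand), the *Max* antagonist with the highest level in WT, had 27.6 and 29.6 FPKM in WT and 15.5 and 15.1 FPKM in ADPKD. The groups lay far apart relative to their spread, and the log2 fold change was -0.86 ± 0.098 (limma adjusted p = 0.00422). *Mxi1* (chr19:53310518-53375810, plus strand), an antagonist first found as a *Max* interactor, moved in the opposite direction. It had 4.22 and 4.46 FPKM in WT and 8.44 and 12.3 FPKM in ADPKD, with a log2 fold change of 1.07 ± 0.18 (limma adjusted p = 0.0112). Antagonists of the same class thus changed in opposite directions in the same libraries.

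*Mxd1*, the antagonist induced when many cell types differentiate, had 9.13 and 7.96 FPKM in WT and 9.11 and 16.2 FPKM in ADPKD. Only ADPKD replicate 2 stood out. The log2 fold change of 0.47 (95% interval -0.17 to 1.11) was not called, but without ADPKD replicate 1 it was 0.85 and called. *Mnt* (chr11:74830920-74845725, plus strand), the broadly expressed antagonist, showed the same split, with 15.99 and 15.94 FPKM in WT and 15.9 and 22.3 FPKM in ADPKD. Its log2 fold change was 0.23 (95% interval -0.18 to 0.64). *Max*, *Mxd1*, *Mxi1*, *Mnt* and *Myc* were all higher in ADPKD replicate 2 than in ADPKD replicate 1. *Mlx*, the hub of the glucose-responsive branch, had 8.61 and 7.30 FPKM in WT and 6.88 and 5.91 FPKM in ADPKD, and its log2 fold change of -0.27 (95% interval -0.62 to 0.07) was not called. *Mxd3*, which is tied to the S phase of dividing cells, had 0.331 and 0.409 FPKM in WT and 0.983 and 1.32 FPKM in ADPKD. The groups do not overlap, but the gene did not pass the filter and was not tested.

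**Figure D2:**
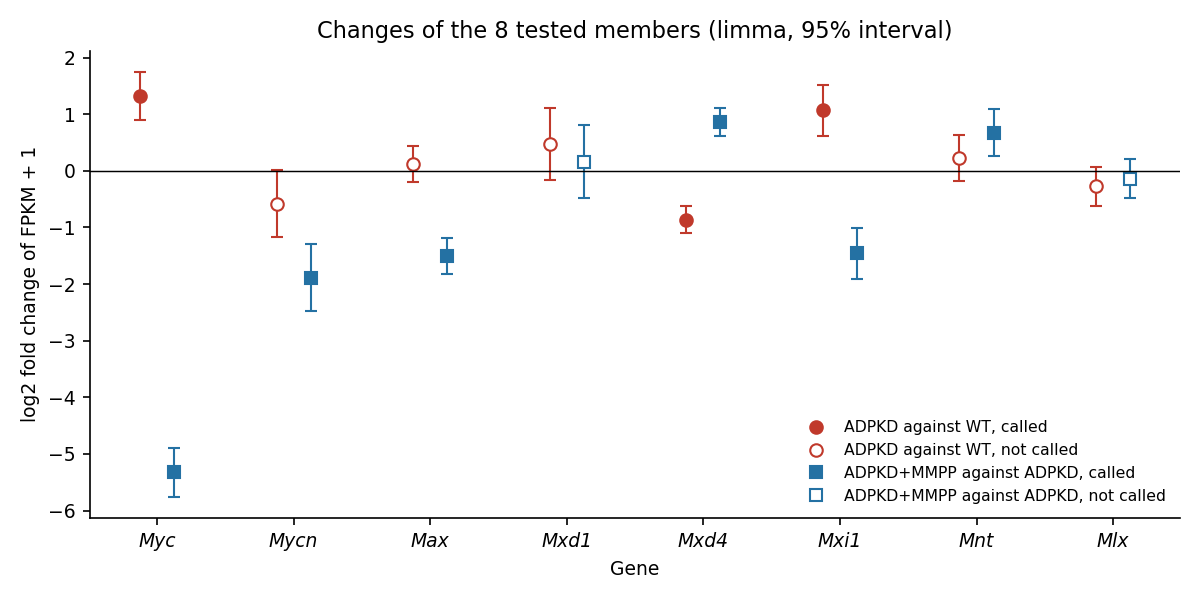
log2 fold changes of the 8 tested members in ADPKD against WT (circles) and ADPKD+MMPP against ADPKD (squares), with limma's 95% intervals as bars and filled points for called changes. *Myc* lies at 1.32 and then at -5.33, and *Mxd4* at -0.86 and then at 0.86; the comparisons share the ADPKD libraries, so opposite signs are no independent result.

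Since FPKM are per length, the levels of the members can be added. *Myc*, *Mycn* and *Mycl* together summed to 38.9 and 43.2 FPKM in WT, 82.5 and 95.9 in ADPKD, and 1.37 and 2.30 in ADPKD+MMPP. The antagonists *Mxd1*, *Mxd3*, *Mxd4*, *Mxi1* and *Mnt* summed to 57.3 and 58.4 FPKM in WT, 49.9 and 67.2 in ADPKD, and 78.0 and 75.0 in ADPKD+MMPP. Transcripts of antagonists thus outweighed those of the *Myc* genes in WT, the reverse held in ADPKD, and the *Myc* sum was far below the antagonist sum after treatment. The ratio of the *Myc* sum to the antagonist sum was 0.678 and 0.741 in WT, 1.65 and 1.43 in ADPKD, and 0.0175 and 0.0307 in ADPKD+MMPP. The make-up of the antagonists changed too. *Mxd4* made up 48.2% and 50.7% of their sum in WT, 31.0% and 22.4% in ADPKD and 37.0% and 37.7% in ADPKD+MMPP, whereas *Mxi1* made up 7.36% and 7.65%, 16.9% and 18.3%, and 3.90% and 4.16%. These sums follow from the single values and are given with no test. In the treated libraries they add genes whose structure goes with changes of opposite sign, as given below: protein-coding genes of like structure had median log2 changes after treatment of -1.64 for *Myc* and -1.39 for *Mycn*, but 0.82 for *Mxd4* and 0.52 for *Mnt*.

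**Figure D3:**
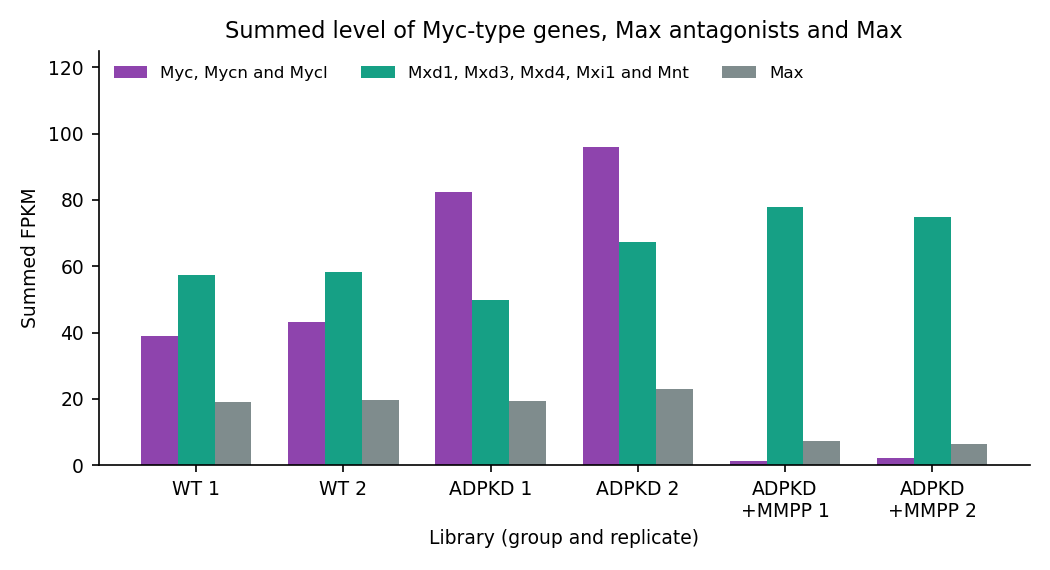
Summed FPKM of the *Myc* genes, of the 5 antagonists and of *Max* alone in each library, on an axis from 0. The *Myc* sum is below the antagonist sum in WT, above it in ADPKD and between 1.37 and 2.30 FPKM in ADPKD+MMPP.

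The second comparison, ADPKD+MMPP against ADPKD, asks what treatment changed in the diseased cells. *Myc*, *Mycn*, *Max* and *Mxi1* fell and *Mxd4* and *Mnt* rose, which is 4 members lower and 2 higher of 8, against 43% and 27.9% of all tested genes. Over all tested genes the median log2 fold change was -0.36 (-0.55 with libraries scaled to a common sum, 0.10 with quantile normalization), and most genes were called in one direction or the other, so a call alone says little here. The change of a gene also followed its structure. Genes in which few exon bases belong to exactly 1 annotated transcript were lower in the ADPKD+MMPP libraries, and across 12375 protein-coding genes the Spearman correlation of this share with the log2 fold change was 0.649, given as a description. The change of each tested member is therefore followed by the gene's share, by the median change of the 618 or 619 genes in its bin of the same share (of 20 bins), and by the value after each library was centred within these bins. Other genes are given as measured, and their lists also by the counts after centring. Whether the way the treated libraries were counted moved the members was not tested. In ADPKD against WT the bins of the members had medians only between -0.03 and 0.07. When libraries were quantile normalized or centred within bins, the calls over all genes split into 36.1% or 33.8% higher and 30.8% or 24.5% lower, in place of 27.9% and 43%.

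*Myc* had 75.5 and 91.5 FPKM in ADPKD and 0.873 and 1.35 FPKM in ADPKD+MMPP. At the depth of these libraries the latter correspond to about 28 and 40 reads, above a floor of 3 reads, against about 6803 and 7991 reads in ADPKD. The log2 fold change was -5.33 ± 0.17 (limma adjusted p = 1.20e-05). Of its exon bases 13.9% belong to only 1 of its 8 annotated transcripts. The bin median was -1.64 and the centred change was -3.39, so *Myc* lay well below the median of genes of like structure. The spread of changes within the bin was not examined. *Mycn* had 6.001 and 3.75 FPKM in ADPKD and 0.411 and 0.723 FPKM in ADPKD+MMPP, a log2 fold change of -1.89 ± 0.24 (limma adjusted p = 0.000704). With a share of 21.6% and a bin median of -1.39, its centred change was -0.24 and no longer called. *Mycl* had 0.0839 and 0.227 FPKM after treatment, about 4 and 10 reads, below both ADPKD libraries.

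*Max* had 19.4 and 23.1 FPKM in ADPKD and 7.20 and 6.37 FPKM in ADPKD+MMPP, a log2 fold change of -1.51 ± 0.13 (limma adjusted p = 0.000148). Its share was 46.2%, its bin median -0.70 and its centred change -0.63, which was still called. *Mxi1* had 8.44 and 12.3 FPKM in ADPKD and 3.04 and 3.12 FPKM in ADPKD+MMPP, a log2 fold change of -1.46 ± 0.18 (limma adjusted p = 0.000670). Its share was 63.2%, its bin median 0.17 and its centred change -1.47, so centring hardly moved it. The changes of *Myc* and *Mxi1*, the members that had risen in ADPKD, were thus both below the medians of genes of like structure after treatment. So were those of *Max* (-0.63), *Mxd1* (-0.95) and *Mycn* (-0.24, not called), none of them called in ADPKD. Both comparisons share the ADPKD libraries, so a rise followed by a fall is no independent result. *Mxd3* had 0.286 and 0.271 FPKM after treatment, below both ADPKD libraries, and was not tested.

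*Mxd4* had 15.5 and 15.1 FPKM in ADPKD and 28.8 and 28.3 FPKM in ADPKD+MMPP, a log2 fold change of 0.86 ± 0.098 (limma adjusted p = 0.000447). *Mnt* had 15.9 and 22.3 FPKM in ADPKD and 31.0 and 30.5 FPKM in ADPKD+MMPP, a log2 fold change of 0.68 ± 0.17 (limma adjusted p = 0.0107). Neither differed from the median of genes of like structure by a called amount. With shares of 76.9% and 73.1%, their bin medians were 0.82 and 0.52 and their centred changes 0.05 and 0.26, and neither was called then, nor with the libraries scaled to a common FPKM sum (0.57 and 0.38). *Mnt* was also not called without ADPKD replicate 1 (0.44). *Mxd1* had 9.11 and 16.2 FPKM in ADPKD and 14.8 and 12.8 FPKM in ADPKD+MMPP, with a log2 fold change of 0.16 (95% interval -0.47 to 0.80) that turned to -0.95, and was called lower, when centred (share 86.3%, bin median 0.97). *Mlx* had 6.88 and 5.91 FPKM in ADPKD and 6.02 and 5.41 FPKM in ADPKD+MMPP, with a log2 fold change of -0.14 (95% interval -0.48 to 0.21). Only 0.55% of its exon bases belong to a single transcript, and in its bin the median was -1.70, so that its centred change was 1.97 and called higher.

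**Figure D4:**
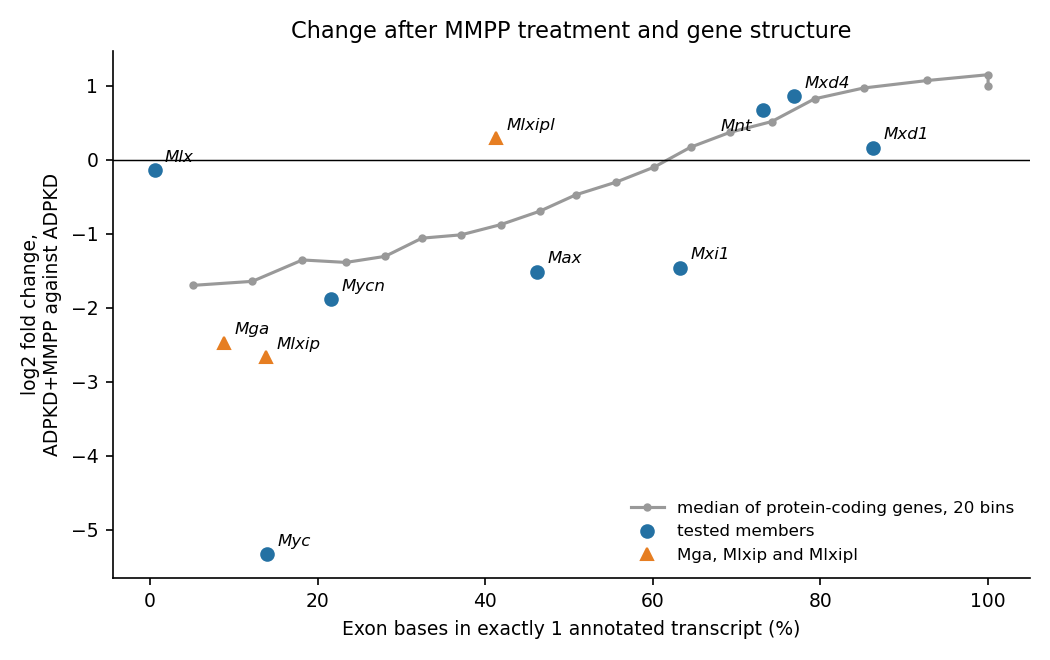
log2 fold change in ADPKD+MMPP against ADPKD plotted against the share of exon bases (%) found in no more than 1 annotated transcript, for the 8 tested members (circles), *Mga*, *Mlxip* and *Mlxipl* (triangles) and the medians of 20 bins of protein-coding genes (line). *Mxd4* and *Mnt* lie near the line, *Mycn*, *Max* and *Mxd1* somewhat below it, *Mxi1* and *Myc* far below it, and *Mlx* above it.

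Set against WT rather than ADPKD, the treated cells did not hold the WT pattern for *Myc*. Of the 8 tested members 1 was higher and 3 were lower, against 30.1% and 43.8% of all tested genes. *Myc*, at 29.9 and 35.8 FPKM in WT and 0.873 and 1.35 in ADPKD+MMPP, had a log2 fold change of -4.01 ± 0.17 (limma adjusted p = 1.62e-05), so it lay under the WT level as well as under the ADPKD level. When centred its change was -2.04 and still called. *Mycn* (-2.47) and *Max* (-1.39) were also lower, with centred changes of -0.86, still called, and -0.53, no longer called. *Mnt* was the member called higher, at 0.91 ± 0.17 (limma adjusted p = 0.00306), but not when centred (0.45) or scaled to a common sum (0.53). *Mxd4* stood at 28.8 and 28.3 FPKM against 27.6 and 29.6 in WT, and its difference of -0.003 had a 95% interval from -0.24 to 0.24, although the centred value was -0.83 and called lower. *Mxi1* (-0.39, 95% interval -0.84 to 0.06) and *Mlx* (-0.41, 95% interval -0.76 to -0.07) were not called, and when centred *Mxi1* was at -0.43 and *Mlx* at 1.57, the latter called higher. *Mxd1* (0.63, 95% interval -0.005 to 1.27) was not called (-0.51 when centred), with WT libraries at 9.13 and 7.96 FPKM and ADPKD+MMPP libraries at 14.8 and 12.8.

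The 3 further factors of the network are *Mga*, a large *Max* partner that represses germline genes, and *Mlxip* and *Mlxipl*, the glucose-responsive partners of *Mlx*. None was called in ADPKD against WT by limma, with 1 of the 3 at an unadjusted p under 0.05. This was *Mlxip*, with 27.4 and 25.5 FPKM in WT and 16.9 and 18.5 FPKM in ADPKD, whose log2 fold change of -0.55 ± 0.11 was under the fold needed. After treatment *Mga* fell from 5.03 and 6.04 FPKM to 0.121 and 0.227 (log2 fold change -2.47) and *Mlxip* fell to 2.01 and 1.85 FPKM (-2.67). *Mlxipl* had 6.92 and 3.97 FPKM in ADPKD and 6.68 and 6.69 FPKM in ADPKD+MMPP and was not called (0.29). The shares of *Mga*, *Mlxip* and *Mlxipl* were 8.82%, 13.8% and 41.3%, their bin medians -1.70, -1.64 and -0.88, and their centred changes -0.36, -0.73 and 1.41.

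The list of 45 genes known to be activated by *Myc* was read beside *Myc* itself. In ADPKD against WT, 9 of the 45 were higher and 1 was lower, against 14.2% and 12.5% of all genes, and their median log2 fold change was 0.27 against 0.03 over all genes. *Hk2*, the first enzyme of glycolysis, had 2.12 and 2.78 FPKM in WT and 27.6 and 91.1 FPKM in ADPKD, a log2 fold change of 3.90 ± 0.51 (limma adjusted p = 0.00575). *Slc19a1*, a folate carrier, rose by 1.21, and *Npm1*, a nucleolar protein of ribosome assembly, by 0.85 on the log2 scale, from 55.3 and 55.05 FPKM in WT to 93.4 and 107 FPKM in ADPKD. The other called members were *Gnl3*, *Mrto4*, *Rcl1*, *Cdk4*, *Odc1* and *Eif4e*, with log2 fold changes between 0.62 and 0.78, of which *Gnl3*, *Mrto4* and *Rcl1* act in the nucleolus. *Odc1*, the first enzyme of polyamine synthesis, had 131 and 107 FPKM in WT and 187 and 177 FPKM in ADPKD. *Ccnd2*, a G1 cyclin, was the 1 lower gene (-0.71). These 7 genes were named after their values were seen. At an unadjusted p under 0.05 alone, 19 of the 45 were higher and 4 lower, and at a fold change of 2 or more 2 were higher. At an adjusted p under 0.05 with the 1.5-fold change, 8 were higher and 1 lower, without *Cdk4* (limma adjusted p = 0.0853).

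After treatment, with *Myc* near 1 FPKM, 25 of the 45 genes were lower and 12 higher, against 43% and 27.9% of all genes, and the median was -0.81 against -0.36 over all genes. *Ldha*, which makes lactate, fell by 5.73 on the log2 scale, from 145 and 137 FPKM in ADPKD to 1.69 and 1.66 FPKM in ADPKD+MMPP. *Mybbp1a*, a nucleolar Myb-binding protein, fell by 3.89 and *Id2*, an inhibitor of differentiation factors, fell by 3.42. The mitochondrial chaperones *Hspd1* and *Hspe1* rose by 2.48 and 2.41, and *Bop1*, a ribosome assembly factor, by 1.77. When libraries were centred within bins of structure, 17 genes were higher and 12 lower, against 33.8% and 24.5% of all genes, with a median of 0.02 against 0.15, so the excess of lower genes in the list was not there on that scale. Against WT, 17 were higher and 21 lower, against 30.1% and 43.8% of all genes, with a median of -0.22 against -0.36. When centred, 17 were higher and 7 lower, against 35.8% and 26.8%.

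**Figure D5:**
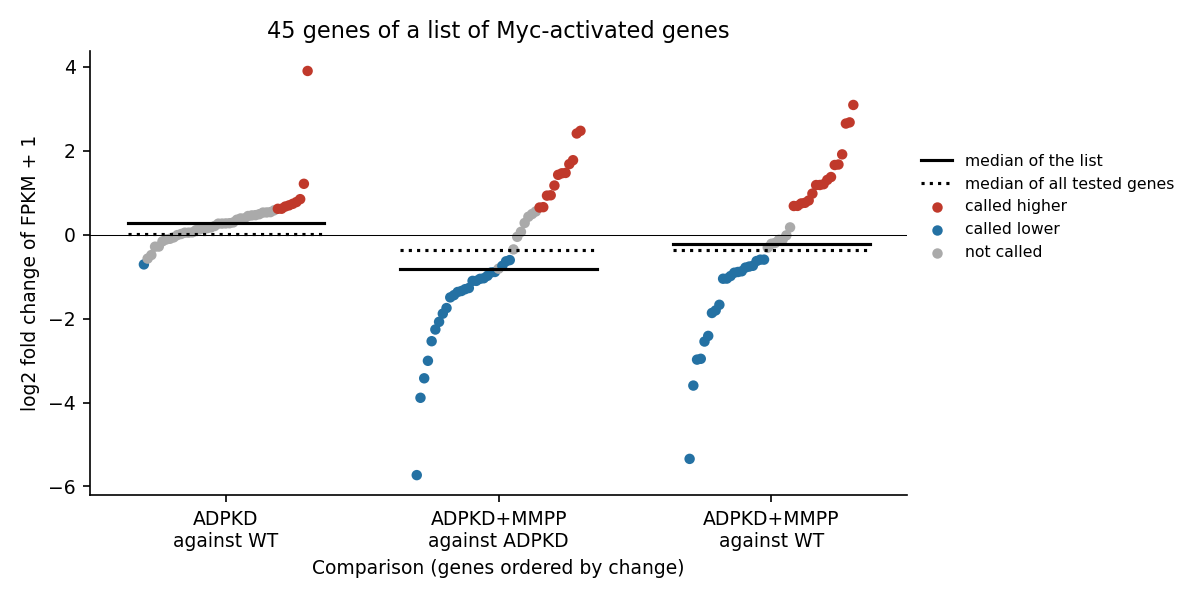
log2 fold changes of the 45 Myc-activated genes in each comparison, ordered by change, with red for called higher, blue for called lower and grey for not called; solid lines mark the list median and dotted lines the median of all tested genes. Most points are grey in ADPKD against WT, and most are coloured in both directions after treatment.

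Of the 10 genes known to be repressed by *Myc*, 3 were higher and 2 lower in ADPKD, against 14.2% and 12.5% of all genes, with a median of -0.11 against 0.03. The higher ones were *Cdkn2b* (1.90), an inhibitor of *Cdk4*, *Thbs1* (1.82), a matrix protein that limits vessel growth, and *Ndrg1* (0.98), a stress-response gene. The lower ones were *Gas1* (-2.29), a growth-arrest gene, and *Ndrg2* (-1.36). After treatment 3 were again higher (*Ndrg1* 1.43, *Gas1* 1.42 and *Cdkn2b* 0.74) and 2 lower (*Cdkn1a* -2.46 and *Ndrg2* -1.31), against 27.9% and 43% of all genes, with a median of 0.16 against -0.36. When centred, 4 were higher and 1 lower of the 9 genes that could be placed in a bin, against 33.8% and 24.5% of all genes. *Cdkn2b* thus stood at 7.04 and 8.18 FPKM in WT, 29.0 and 33.2 in ADPKD and 48.0 and 57.4 in ADPKD+MMPP, in which *Myc* was highest in the second group and lowest in the third. Against WT, 3 were higher and 5 lower, against 30.1% and 43.8% of all genes. When centred, 4 were higher and 3 lower, against 35.8% and 26.8%.

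On the *Mlx* side, 4 of the 12 targets of MondoA and ChREBP were higher and 4 lower in ADPKD, against 14.2% and 12.5% of all genes. At an adjusted p under 0.05 with that fold, 4 were higher and 3 lower. *Txnip*, the classical MondoA target that restrains glucose uptake, fell from 283 and 262 FPKM in WT to 162 and 116 FPKM in ADPKD (log2 fold change -0.99 ± 0.17, limma adjusted p = 0.0116), and *Acacb*, which makes malonyl-CoA, fell by 1.32. *Rgs16* (1.98), a regulator of G-protein signalling, *Fasn* (0.79), the fatty acid synthase, and *Klf10* (0.66) rose. After treatment 3 were higher and 6 lower, against 27.9% and 43% of all genes. When centred, 3 were higher and 3 lower, against 33.8% and 24.5%. *G6pc*, the glucose-6-phosphatase of proximal tubule and liver, rose by 5.17, *Khk*, the fructokinase of the same tubule, by 2.28 and *Elovl6* by 1.24, while *Klf10* (-5.32), *Acly* (-3.27) and *Fasn* (-2.11) fell. Of the 14 proximal tubule markers, 10 were called higher and 1 lower in the same libraries, and their part in these values was not tested. Against WT, 5 were higher and 5 lower, also when centred, against 30.1% and 43.8% of all genes (35.8% and 26.8% when centred).

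Cofactors and corepressors of the network, 13 genes, gave 0 calls in either direction in ADPKD by limma, and so did the 9 tested genes of 11 that control *Myc* protein turnover. At an unadjusted p under 0.05 alone, 2 cofactors were higher and 2 lower, and 0 turnover genes were higher and 2 lower. After treatment 4 cofactors were higher and 8 lower, against 27.9% and 43% of all genes, with a median of -1.75 against -0.36. *Sin3a* (-3.001), the scaffold that Mxd proteins and *Mnt* recruit, and the histone acetylation factors *Ep400* (-2.62) and *Kat5* (-2.34) fell, while *Ruvbl1* (1.72), *Wdr5* (1.27) and *Hdac1* (0.93) rose. Of the turnover genes 2 were higher, among them the phosphatase subunit *Ppp2r5a* (1.08), and 5 lower, among them the ubiquitin ligases *Huwe1* (-3.46) and *Fbxw7* (-1.92) and the deubiquitinase *Usp36* (-2.88). The genes that fell had low shares of exon bases in 1 transcript (3.55% in *Sin3a*, 13.1% in *Ep400*, 26.9% in *Huwe1*) and most of those that rose had high ones (76.7% in *Ruvbl1*, 87.8% in *Ppp2r5a*). When centred, 4 cofactors were higher and 5 lower, and 1 turnover gene was higher and 4 lower, against 33.8% and 24.5% of all genes. Against WT, 3 cofactors were higher and 8 lower, and 2 turnover genes were higher and 6 lower, against 30.1% and 43.8% of all genes. When centred, 4 cofactors were higher and 6 lower, and 0 turnover genes were higher and 4 lower, against 35.8% and 26.8%.

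*Myc* is itself an immediate-early gene, raised within minutes by growth signals and by the handling of tissue. Of 13 immediate-early and dissociation genes, 0 were higher and 8 lower in ADPKD by limma (0 and 11 at an unadjusted p under 0.05 alone), against 14.2% and 12.5% of all genes, with a median of -0.74. At an adjusted p under 0.05 with the fold needed, 0 were higher and 7 lower. *Fos* had 1907 and 2120 FPKM in WT and 953 and 604 FPKM in ADPKD (log2 fold change -1.41), and *Jun* had 1544 and 1694 FPKM in WT and 935 and 665 FPKM in ADPKD (-1.03). After treatment 9 were higher and 3 lower, against 27.9% and 43% of all genes. When centred, 8 were higher and 1 lower, against 33.8% and 24.5%. In ADPKD+MMPP, *Fos* stood at 2228 and 2253 FPKM and *Jun* at 1867 and 1952 FPKM. The 3 lower genes were *Fosb* (-2.28), *Atf3* (-1.06) and *Zfp36* (-1.02), so the list did not move as one. The part of tissue handling in the level of *Myc* was not tested. The genes of this list were named after their values were seen. Among 7 tested proliferation genes of 10, 4 were higher and 0 lower in ADPKD by limma, against 14.2% and 12.5% of all genes. After treatment 5 were higher and 0 lower by limma, against 27.9% and 43% of all genes. At an unadjusted p under 0.05 alone these counts were 5 and 1 in ADPKD, and 6 and 0 after treatment. At an adjusted p under 0.05 with the fold needed, they were 2 and 0 in ADPKD, and 5 and 0 after treatment. When centred, 4 were higher and 0 lower after treatment, against 33.8% and 24.5% of all genes. *Mki67*, the marker of cycling cells, had 0.666 and 0.594 FPKM in WT, 3.59 and 2.02 in ADPKD and 8.64 and 7.85 in ADPKD+MMPP, so it was highest in the libraries where *Myc* was lowest. Not all of the list did so. *Cdk1*, not tested, had 1.49 and 0.822 FPKM in ADPKD and 0.412 and 0.297 in ADPKD+MMPP. *Ccnb1*, also not tested, had 0.674 and 0.688, and 0.161 and 0.304. *Bub1*, not tested either, had 0.792 and 0.229, and 0.895 and 1.73.

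Many markers of the cell types in the preparation also differed between the groups. In ADPKD against WT all 7 tested leukocyte markers of 9 were higher, 4 of 5 fibroblast markers were higher and 1 lower, all 6 intercalated cell markers and all 5 endothelial markers were lower, 0 of 7 principal cell markers were called by limma (0 at an unadjusted p under 0.05), and 5 of 14 proximal tubule markers were higher and 1 lower, where 14.2% of all genes were higher and 12.5% lower. At an adjusted p under 0.05 with the fold needed, 6 leukocyte markers were higher, and 5 proximal tubule markers were higher and 0 lower. After treatment 10 proximal tubule markers were higher and 1 lower, 6 intercalated markers were higher, 4 principal cell markers were higher and 1 lower, 3 endothelial markers were lower, and leukocyte markers gave 2 higher and 4 lower and fibroblast markers 2 and 2, where 27.9% of all genes were higher and 43% lower. When centred, these counts were 13 higher and 0 lower for proximal tubule, 6 and 0 for intercalated, 1 and 0 for principal cell, 0 and 5 for endothelial, 2 and 2 for leukocyte and 1 and 2 for fibroblast markers, where 33.8% of all genes were higher and 24.5% lower. As measured, *Mxd4* and the sum of the intercalated markers were both lowest in ADPKD. That sum was 242 and 260 FPKM in WT, 63.6 and 26.3 in ADPKD and 226 and 228 in ADPKD+MMPP. When centred, *Mxd4* changed by 0.05 after treatment and was not called, while 6 intercalated markers were higher. The part of these cell types in the changes of the members was not tested.

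The 5 genes whose profile over the 6 libraries was most like that of *Myc* were found by the Euclidean distance of log2(FPKM + 1), each gene taken from its WT mean, among 9438 genes with a group mean of at least 5 FPKM. They were *Rnf186* (0.454), a ubiquitin ligase, the microRNA gene *Mir3058* (0.827), *Capns1* (0.840), the small subunit of calpain, *Oasl1* (0.920), an interferon-induced gene, and *Lamb1* (0.926), a laminin chain. *Rnf186* had 17.0 and 18.5 FPKM in WT, 35.4 and 42.0 in ADPKD and 0 and 0.585 in ADPKD+MMPP, and it has 1 annotated transcript, so its share is 100%. The bins at that share had median changes of 1.15 and 0.998 after treatment. The 5 genes were picked on all 6 libraries, the treated ones included. Their low values after treatment thus follow from the choice and are no separate result. *Mir3058* is listed at 0 in both ADPKD+MMPP libraries. *Lamb1* had 33.3 and 29.7 FPKM in WT, 72.2 and 56.2 in ADPKD and 0.581 and 0.518 in ADPKD+MMPP.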

How the data were processed

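RNA-seq of polyadenylated RNA covered 6 libraries of DBA-positive kidney cells, 2 in each of 3 groups that were assigned by the labels. The submitters' processing notes name HISAT2 2.1.0, featureCounts 1.6.0 and the build mm10. The authors deposited FPKM per gene symbol, which are not counts, and used DESeq2 on counts in their own analysis. How FPKM were made from counts, and the annotation, are not given in the sources used here. Of 55367 symbols, 53186 matched 1 gene of GENCODE vM21, which gave exon lengths, transcripts and read steps (98.5% to 99.0% of low values whole within 0.05).

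limma 3.58.1 in R 4.3.3 was run on log2(FPKM + 1) with an intensity trend over 14862 genes, in one fit of the 6 libraries, and tested on simulated data. Counting error is not modelled per gene, and reads at 10.9 to 33.2 M per library and 2 libraries per group set the precision. Members and lists were chosen with earlier results of these data known. Named genes were all members, the 3 other *Max*-network factors, up to 3 higher and 3 lower called genes per list and comparison (libraries not overlapping, mean FPKM of at least 5 in a group), and the 5 nearest to *Myc*. A gene that this rule names is not reported here. Alternatives covered the pseudocount, filter, scaling, trend, groups in the fit, thresholds, centring within bins of structure, a replicate block and leaving out each library.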

Additional observations from a re-analysis of the deposited data

How the results depend on the processing

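The 18 alternatives changed few calls in ADPKD against WT and more after treatment. *Myc* kept its direction and its call in all 3 comparisons under each of them. Leaving out 1 library gave 1 to 2 members lower in ADPKD against WT and 1 to 3 Myc-activated genes lower, 1 to 2 members higher in ADPKD+MMPP against ADPKD, and 1 to 2 higher against WT. In ADPKD against WT, members lower numbered 2 with a common sum, quantile normalization or centring and 0 at a fold change of 2, and Myc-activated genes numbered 2 higher and 0 lower at a fold change of 2, and 2 lower with a pseudocount of 0.1, a common sum or quantile normalization and 0 with a filter of FPKM 5. In ADPKD+MMPP against ADPKD, members higher numbered 0 with a common sum or a fold change of 2 and 1 with centring, and Myc-activated genes lower numbered 12 with centring. Against WT, members higher numbered 0 with a common sum or a fold change of 2, and 2 with upper-quartile scaling, quantile normalization or only the 2 groups compared, members lower 5 with a common sum, and Myc-activated genes 11 higher and 11 lower at a fold change of 2, 13 lower with quantile normalization and 7 lower with centring.

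Single members turned direction as follows, none of them called before. In ADPKD against WT, leaving out 1 library gave *Max* between -0.00477 and 0.24 and *Mnt* between -0.00361 and 0.46, both negative without ADPKD replicate 2 only. After treatment *Mxd1* turned to -0.12 with a common sum, -0.95 with centring and -0.22 without ADPKD replicate 1 (range over libraries left out -0.22 to 0.55), and *Mlx* to 0.0447 with upper-quartile scaling, 0.36 with quantile normalization and 1.97 with centring. Against WT, *Mxd1* turned to -0.51 with centring, *Mxd4* to 0.20 with upper-quartile scaling, 0.0444 without WT replicate 2 and 0.011 without ADPKD+MMPP replicate 2 (range -0.0508 to 0.0444), *Mxi1* to 0.21 with quantile normalization, and *Mlx* to 0.0255 with quantile normalization and 1.57 with centring. The cause was not tested. Calls of *Mxd1* against WT also appeared, at an unchanged 0.63, when either ADPKD library was left out.

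The replicate numbers of the groups correlated at 0.129, -0.00796 and 0.0137 in their deviations. With 2 libraries per group, these values are low but cannot settle whether the numbers pair the samples. A fit with a replicate block left the count of members lower in ADPKD against WT at 1 and changed no member's call. Depth limits *Myc*, *Mycn*, *Mycl*, *Mxd3* and *Mga* in the ADPKD+MMPP libraries, where they have 4 to 40 reads. Whether counting used strand is not given in the sources used here, so reads of a member and of an overlapping antisense gene cannot be told apart.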
